A study of Mus musculus with 2 samples.

Results

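The genes described here are the processed pseudogenes that were expressed in MEL cells, a mouse erythroleukaemia line, after treatment with 2% dimethyl sulfoxide (DMSO) for 5 days. A row counted as a member where GENCODE M21 types the gene as a processed pseudogene and where its deposited TPM (a length-corrected share of all RNA in the table, scaled to the same total in each library) was 1 or more in both libraries. Of the 5349 processed pseudogene rows in the tables, 233 met this rule, which is 4.36%, and 3113 had no count in either library. The series holds 2 libraries of total RNA from 1 condition, labelled biological replicates 2 and 1. The labels tie both to the same biosample record, so part of their spread can be technical. Untreated cells are not analysed here, and nothing below is a response to DMSO. The estimated counts summed to 90856320 for replicate 2 and to 65109488 for replicate 1. Where a row had 0 counts, up to 3 remain possible, equal to 0.0330 CPM in replicate 2 and 0.0461 CPM in replicate 1, for counting error only.

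A processed pseudogene arises when the messenger RNA of a gene is copied back into DNA and inserted elsewhere in the genome, usually without introns and without the promoter of its source. Genes that are strongly expressed in the germ line, such as those of ribosomal proteins, have left many such copies. Because a copy can match the messenger RNA of its source gene base for base, short reads from one can be counted to the other. MEL cells are arrested early red cell precursors, and DMSO is known to drive them towards haemoglobin synthesis. The erythroid markers were high: Hba-a1, an alpha-globin gene, had 3934 TPM in replicate 2 and 2038 TPM in replicate 1, and the transcription factor gene Gata1 had 64.3 and 57.4 TPM in that order. Among markers of other cells, Mpo, Cpa3, Col1a1 and Cd3e reached at most 0.08 TPM in either library.

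The members were chosen by their TPM in both libraries, so their levels and the differences between the libraries are given as a description. The measure that the rule did not use is the posterior standard deviation (SD) of each count, which the authors' tables give as the spread of the count estimate. It is 0 for genes whose reads match nothing else, so it carries the uncertainty of dividing shared reads among genes and not the counting error. It is given below as a percentage of the count. The closest gene of a pseudogene is the protein-coding gene at another locus whose transcript gave the best sense-strand alignment. Where a member is called a copy of a gene, that gene is its closest gene, and whether it was the source was not tested.

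Stretches of 4 members are shown first beside the coding sequence of their closest genes, since the results turn on how far copies can be told apart. All are 120 bases, 5′ to 3′, from GENCODE M21 on GRCm38 (mm10), taken where the ungapped alignment held the most differences, and capitals mark the bases at which member and gene differ. Rpl31-ps8, at chr15:90764537-90764656 on the minus strand, had 0 differences from Rpl31, which encodes a protein of the large ribosomal subunit. It stands for the copies that are identical to a gene.
Rpl31-ps8: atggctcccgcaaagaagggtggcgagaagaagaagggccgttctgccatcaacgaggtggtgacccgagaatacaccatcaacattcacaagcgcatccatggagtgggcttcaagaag
Rpl31: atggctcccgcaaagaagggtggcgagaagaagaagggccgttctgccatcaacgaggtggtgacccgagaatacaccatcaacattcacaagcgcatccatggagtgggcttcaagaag
Gm8730, the member with the highest level, at chr8:102865297-102865416 on the minus strand, had 4 differences from Rplp0, which encodes a protein of the ribosomal stalk.
Gm8730: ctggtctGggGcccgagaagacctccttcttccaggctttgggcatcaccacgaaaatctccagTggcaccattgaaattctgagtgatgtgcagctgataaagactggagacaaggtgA
Rplp0: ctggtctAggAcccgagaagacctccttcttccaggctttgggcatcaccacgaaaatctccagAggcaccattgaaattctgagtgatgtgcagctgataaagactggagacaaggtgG
Rpsa-ps10, the second highest, at chr3:150073324-150073443 on the minus strand, had 2 differences from Rpsa, which encodes a protein of the small ribosomal subunit.
Rpsa-ps10: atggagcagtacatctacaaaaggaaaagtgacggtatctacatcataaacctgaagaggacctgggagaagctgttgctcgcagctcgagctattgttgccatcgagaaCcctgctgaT
Rpsa: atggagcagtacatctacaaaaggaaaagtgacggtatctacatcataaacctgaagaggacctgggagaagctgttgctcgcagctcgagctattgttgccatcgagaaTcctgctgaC
Gm14276, the member least like its closest gene, at chr2:156994510-156994629 on the minus strand, had 24 differences from Rps2, another small subunit protein gene.
Gm14276: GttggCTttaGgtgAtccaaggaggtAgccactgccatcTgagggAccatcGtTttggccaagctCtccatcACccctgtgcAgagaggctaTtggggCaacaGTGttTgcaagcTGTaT
Rps2: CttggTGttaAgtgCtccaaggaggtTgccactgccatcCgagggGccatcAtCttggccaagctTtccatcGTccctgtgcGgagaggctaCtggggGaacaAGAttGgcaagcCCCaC

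Median TPM over the members was 4.62 in replicate 2 and 4.99 in replicate 1. By mean TPM of the libraries, 12 reached 100 or more, 83 reached 10 or more and 55 lay under 2. Together they held 1.03% of all counts in replicate 2 and 0.965% in replicate 1, a mean of 1.00% ± 0.0485 (SD, n = 2), and 96.1% and 95.6% of the TPM of all processed pseudogenes in the same order. The 10 highest held 40.8% of the members' TPM in replicate 2 and 41.6% in replicate 1. The lengths of the members ran over 171 to 2406 nt with a median of 496 nt, and 228 have 1 exon. The effective length was under 100 nt in both libraries for 11 members and under 200 nt in either library for 45. TPM is corrected for this length, so such members reach a given TPM with fewer counts than longer ones.

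At the threshold of the rule, Gm5835 had 1.00 TPM in both libraries, Gm4540 had 1.47 in replicate 2 and 1.00 in replicate 1, and Gm9790 had 1.00 and 1.02. Just below it, Rpl30-ps9 had 0.99 TPM in replicate 2 and 1.02 in replicate 1, Gm13050 had 1.10 and 0.98, and Gm9392 had 0.98 and 1.03. The authors' lower bound of TPM, of an interval whose level is not stated, was 1 or more in both libraries for 210 members. The number depends on what shares the TPM total: rows with an effective length under 200 nt held 85.9% of all TPM in replicate 2 and 84.1% in replicate 1. With TPM rescaled over the longer rows, 472 pseudogenes of at least that effective length reached 1 in both libraries.

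The highest levels belonged mostly to copies of ribosomal protein genes, which were closest to 12 of the 15 members with the highest mean TPM. Gm8730, the Rplp0 copy, had 426 TPM in replicate 2 and 522 TPM in replicate 1. Rpsa-ps10 had 301 TPM in replicate 2 and 270 TPM in replicate 1. Both had a posterior SD of less than 0.1% of the count in both libraries. The quantified rows of Gm8730 and Rpsa-ps10 have 1075 and 1031 nt, against 954 and 885 nt in GENCODE M21. The rest of each row was not examined.

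Rpl27-ps3, a copy of Rpl27 of the large subunit, had 226 TPM in replicate 2 and 228 TPM in replicate 1. Rpl31-ps8, whose stretch is shown above, had 187 and 183 TPM in the same order of libraries. Gm10443, a copy of Rps28, had 160 TPM in replicate 2 and 200 TPM in replicate 1. Its effective length was only 49.4 and 56.1 nt, and its counts were 3158 and 2701 in the same order. The GENCODE M21 sequences of these 3 members lie whole inside a transcript of another gene, and their posterior SD lay between 0.562% and 2.48% of the count. For Rpl27-ps3 that sequence has 411 nt and the quantified row 475 nt, and the rest of the row was not examined.

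The others among the 15 ran on to lower levels. Gm10240 and Gm13370, both copies of Rpl21, had means of 154 and 147 TPM, but the posterior SD of each was 57.9% to 64.7% of the count. The authors' TPM interval for Gm10240 in replicate 2 ran over 3.30 to 256, so the split between them is not resolved. Gm6436 had 142 TPM in replicate 2 and 137 TPM in replicate 1. Its closest gene is given as the protein-coding gene Gm10260, which is 1 of 3 genes tied for the best alignment. Gm13394, closest to the glycolytic enzyme gene Gapdh, had 123 TPM in replicate 2 and 155 TPM in replicate 1. Rps15a-ps7, Gm10020, Rps3a2, Rpl3-ps1 and Gm9625 are copies of Rps15a, Rpl15, Rps3a1, Rpl3 and Rplp0, and their means ran over 86.5 to 118 TPM. Gm15459, a copy of the constitutive heat shock protein gene Hspa8, stood apart from these by its spread, with 66.0 TPM in replicate 2 and 136 TPM in replicate 1.

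**Figure D1:**
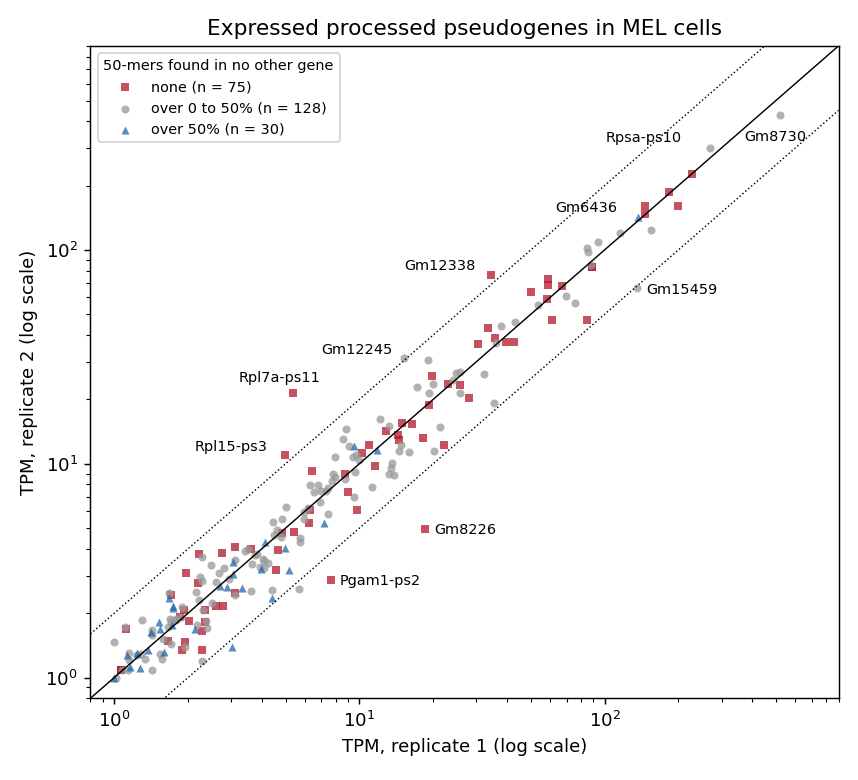
TPM of each of the 233 members in replicate 2 (vertical) against replicate 1 (horizontal), both on log scales, with symbols for the share of 50-mers found in no other annotated gene. The solid line marks equal TPM and the dotted lines a 2-fold difference. Most points lie along the solid line, and Rpl7a-ps11 and Gm8226 lie far from it on opposite sides.

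For most members the division of shared reads was reported as precise. The posterior SD had a median of 1.97% of the count in replicate 2 and 2.57% in replicate 1, with quartiles of 1.00% and 4.14% in replicate 2 and of 1.33% and 5.47% in replicate 1. It was at most 5% in both libraries for 171 members, which is 73.4%, and over 50% in both for 10. It was higher than the counting error of the same count, taken as its square root, for 70 members in both libraries.

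Protein-coding genes had smaller values. Of the 8003 protein-coding genes at 1 TPM or more in both libraries, 85.3% had a posterior SD of 0 in both and 99.6% had at most 5%, against 3 members at 0 (1.29%). The 181 closest genes at 1 TPM or more had medians of 0.113% in replicate 2 and 0.129% in replicate 1, so the uncertainty of shared reads was small beside the counts of most of these genes. The 533 processed pseudogenes that were not members but had 10 or more counts in both libraries had larger medians than the members. These were 3.47% in replicate 2 and 4.41% in replicate 1, and 52.3% of the 533 had at most 5% in both. The groups were not matched for count.

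The members are close copies. Over the aligned part, identity to the closest gene had a median of 99.5%, 158 members had 99% or more and 55 had 100%. The lowest was 85.9%, for Gm14276. To measure how much of each member a short read could place, every run of 50 bases (50-mer) was looked up in all annotated transcripts of other genes on both strands. The share found nowhere else had a median of 12.1%, and 75 members had no such 50-mer. These sequences are from GENCODE M21, and for the 55 members with another length in the tables they do not cover the quantified row exactly. With runs of 100 bases the median was 26.97%, and 73 members had none.

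The posterior SD was smaller where more of the sequence was unique. Its median was 3.89% of the count in replicate 2 and 4.51% in replicate 1 for the 75 members with no unique 50-mer. It was 1.97% and 2.42% for the 77 with up to 25% unique 50-mers, and 1.59% and 2.05% for the 51 with over 25% to 50%. For the 30 members with over 50%, it was 0.523% and 0.658%. Across all 233 members the Spearman correlation between the mean posterior SD and the unique share was -0.47, a description over genes that share libraries and differ in count.

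A low posterior SD was also found where no read of 50 bases could be unique. Of the 75 members with no unique 50-mer, 39 had a posterior SD of at most 5% in both libraries, and so did 31 of the 63 of them with the same length in the tables. The annotated sequence of 70 members lies whole inside a transcript of another gene, and 58 of these have the same length in the authors' tables and in the annotation used here. A clearer case is the 43 of these 58 that lie inside a protein-coding transcript and match no other member. Their medians were 3.04% in replicate 2 and 3.67% in replicate 1, their highest values 12.0% and 17.6%, and 28 of the 43 had at most 5% in both. They held 24.1% of the members' TPM in replicate 2 and 23.6% in replicate 1. The members of this kind had a median length of 425 nt, and the closest transcripts had a median of 1109 nt and were 44 to 7225 nt longer. For these 43 the posterior SD stands beside a sequence with no base of its own, and which locus gave the reads was not tested.

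**Figure D2:**
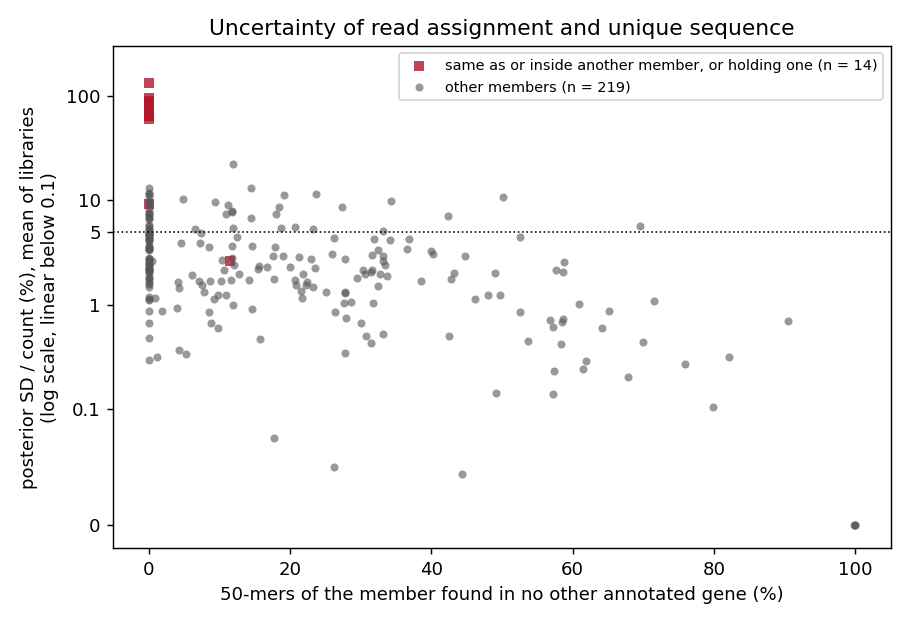
Posterior SD as a percentage of the count, mean of the libraries (vertical, log scale that is linear below 0.1), against the share of 50-mers found in no other annotated gene (horizontal), for 233 members. Squares mark the 14 members that are the same as, inside or around another member, and the dotted line marks 5%. Of the squares, 12 lie far above all other points, and 39 members at 0% on the horizontal axis had at most 5% in both libraries.

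The largest posterior SDs belonged to members that share their whole sequence with one another. Grouping members where one is identical to another or lies inside it gave 5 sets with 14 members. In 4 of these sets, with 12 members, every posterior SD in both libraries was at least 35.2% of the count. Among the 219 members in no set, the highest was 23.4%. In the fifth set, Gm16199 lies inside the longer Gm6206, both copies of the ubiquitin ligase gene Cop1, and their posterior SDs lay between 2.13% and 9.28%.

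The pair Gm13841 and Gm8210 has the same 483 nt at different loci, and both are copies of Rpl29, of the large subunit. In the stretches below, at chr5:115802040-115802159 on the minus strand and at chr1:43189156-43189275 on the plus strand, capitals mark the 1 base at which both differ from Rpl29.
Gm13841: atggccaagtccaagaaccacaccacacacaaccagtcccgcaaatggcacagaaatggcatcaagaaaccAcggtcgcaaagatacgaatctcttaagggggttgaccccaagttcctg
Gm8210: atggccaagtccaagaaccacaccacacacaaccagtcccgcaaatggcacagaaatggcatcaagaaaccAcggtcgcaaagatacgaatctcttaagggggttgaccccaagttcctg
Rpl29: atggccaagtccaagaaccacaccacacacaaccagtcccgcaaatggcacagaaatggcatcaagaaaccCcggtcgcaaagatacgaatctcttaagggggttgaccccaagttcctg
Each of the pair had 82.8 TPM in replicate 2 and 89.2 TPM in replicate 1, with posterior SDs between 63.2% and 64.6% of the count. Their sum was 166 TPM in replicate 2 and 178 TPM in replicate 1, against 4.68 and 4.53 TPM for Rpl29. The values of the pair were equal in each library, and the tables do not tell which locus gave the reads.

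The set with the highest level holds Gm10240 and Gm13370, which are identical, and Gm10163, a slightly shorter copy inside them. Their sum was 318 TPM in replicate 2 and 304 TPM in replicate 1, a mean of 311 ± 10.01 (SD, n = 2), against 61.6 and 76.5 TPM for Rpl21. Gm10163 had 9.71 and 11.6 TPM of this, with a posterior SD of 120% and 148% of its count. The 5 annotated copies of Rpl35a (Gm10243, Rpl35a-ps2, Rpl35a-ps3, Rpl35a-ps4 and Rpl35a-ps6) are identical over 333 nt and were each listed at 1.09 TPM in replicate 2 and 1.07 TPM in replicate 1. Their sum was 5.45 and 5.35 TPM, so the rule counts as 5 members what the reads cannot divide. With identical sequences counted as 1, there were 227 members.

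Rpl7a-ps11 and Gm8226, copies of Rpl7a, changed places between the libraries. The 798 nt of Gm8226 lie inside the 801 nt of Rpl7a-ps11. Rpl7a-ps11 had 21.4 TPM in replicate 2 and 5.36 TPM in replicate 1, whereas Gm8226 had 4.95 and 18.5 TPM. The sum differed less, with 26.4 TPM in replicate 2 and 23.9 TPM in replicate 1. The smaller of both values in each library had a posterior SD above 100% of its count, at 124% and 153%.

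**Figure D3:**
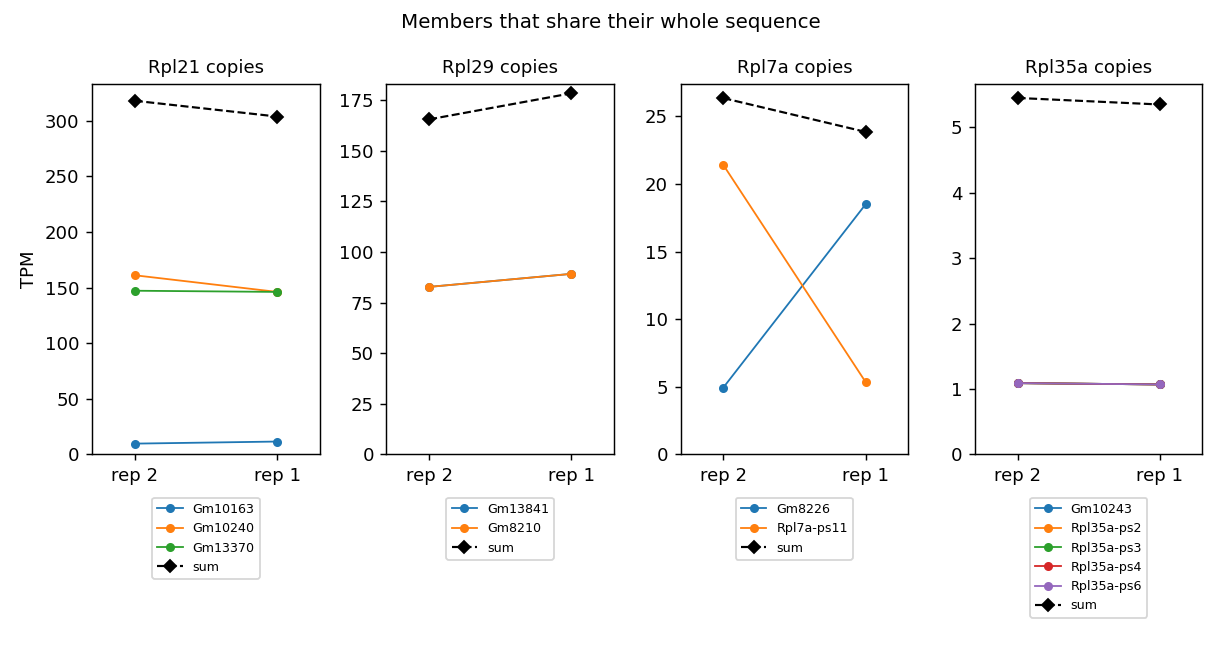
TPM of the members of 4 sets that share their whole sequence, in replicate 2 (left of each panel) and replicate 1 (right), with their sum as diamonds. The Rpl7a copies cross between the libraries while their sum has a mean of 25.1, and the identical Rpl29 and Rpl35a copies lie on top of each other.

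The 30 members with over 50% unique 50-mers had identities of 85.9% to 98.8%, and 24 of them have the same length in the tables and in GENCODE M21. Their median TPM was 2.26 in replicate 2 and 2.42 in replicate 1, and they held 4.66% of the members' TPM in replicate 2 and 4.52% in replicate 1. The posterior SD was at most 5% in both libraries for 28 of them, and 3 had a mean of 10 TPM or more. These were Gm6436, Rps15a-ps8 with 11.6 and 11.8 TPM, and the histone pseudogene Hist3h2bb-ps with 12.2 TPM in replicate 2 and 9.50 TPM in replicate 1. Gm6436 overlaps an exon of another gene on the opposite strand, and whether the authors counted by strand is not stated. The quantified row of Gm6436 has 459 nt, against 451 nt in GENCODE M21.

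The 3 members with a posterior SD of 0 in both libraries were all of low level and at least 99.9% unique by 50-mers. Gm14276, whose stretch beside Rps2 is shown above, had 1.81 TPM in replicate 2 and 1.52 TPM in replicate 1. Gm28188, closest to Ankrd37, had 1.39 and 3.03 TPM. Gm16399, closest to the respiratory chain subunit gene Cox6c, had 2.35 TPM in replicate 2 and 4.40 TPM in replicate 1. It lies in an intron of Car1, a carbonic anhydrase gene of red cells, on the same strand, and Car1 had 143 TPM in replicate 2 and 263 TPM in replicate 1. Rps15a-ps8, Hist3h2bb-ps, Gm14276, Gm28188 and Gm16399 were singled out after their values were seen.

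Ribosomal protein genes were closest to 92 of the 233 members (39.5%), against 1395 of the 5090 processed pseudogene rows with a closest gene (27.4%). Of those 1395 rows 6.59% were members, against 4.58% of all 5090. They held 72.4% of the members' TPM in replicate 2 and 70.4% in replicate 1. The 92 members had 53 different closest genes. Rpl35a and Rps2 had 5 members each, of 36 and 87 annotated copies, Rps15a had 4 of 16, and Rplp0 and Rpl7a had 3 each, of 11 and 93.

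The other groups, set by symbol and not by function, were small. Mitochondrial proteins gave 14 members of 228 rows. Gm12338, a copy of the cytochrome oxidase subunit gene Cox7c, had 76.2 TPM in replicate 2 and 34.5 TPM in replicate 1. Its effective length was only 31.5 and 38.1 nt, and its counts were 961 and 317 in the same order. Gm6969, a copy of Cox7a2l, had 44.0 and 37.7 TPM, and Ndufb4c, a copy of the complex I subunit gene Ndufb4, had 37.0 and 42.8 TPM. Chromatin and histone genes gave 12 members of 236 rows, led by Gm15387, a copy of the DNA-bending protein gene Hmgb1, with 18.8 TPM in replicate 2 and 19.2 TPM in replicate 1. Gm9800, a copy of Ptma, had 11.3 and 15.9 TPM, and Gm8203, a copy of the variant histone gene H2afz, had 12.3 and 10.9 TPM.

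By symbol, translation factors and RNA-binding proteins gave 9 members each, of 103 and 152 rows. The copy of the splicing factor gene Rnps1 was in no family. The translation group was led by Tpt1-ps3, a copy of Tpt1, with 20.4 TPM in replicate 2 and 28.0 TPM in replicate 1. Eif4a-ps4, a copy of the helicase gene Eif4a1, had 11.4 and 14.5 TPM, and Gm13456, a copy of the elongation factor gene Eef1a1, had a mean of 10.35 ± 0.919 TPM (SD, n = 2). Gm8186, a copy of the splicing protein gene Snrpg, led the RNA-binding group with 37.0 TPM in replicate 2 and 39.6 TPM in replicate 1. The group set by symbol as ubiquitin and proteasome genes had 8 members of 115 rows. It took in Gm15452, a copy of the cell cycle gene Cks2, with 25.9 and 19.8 TPM, and Gm10241, a copy of Sumo2, with 12.3 and 22.1 TPM.

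Glycolytic enzymes gave 5 members of 252 rows (1.98%), the lowest share among the families that had any. Gapdh alone was closest to 196 of these rows, with 1 member, so the low share mostly reflects the Gapdh copies. That member, Gm13394, held most of the level of the 5. Gm4735, a copy of Eno1b, had 19.3 TPM in replicate 2 and 35.3 TPM in replicate 1. Gm1840, a copy of Gpi1, had 5.30 and 7.15 TPM. Chaperones and isomerases gave 5 members of 134 rows. Among them Gm10123, a copy of the cyclophilin gene Ppia, had 47.3 TPM in replicate 2 and 60.8 TPM in replicate 1. Cytoskeletal genes gave 6 members of 85 rows. They were led by the tubulin copies Gm6682 and Gm14150 with 10.1 and 8.91 TPM in replicate 2 and 13.6 and 13.2 TPM in replicate 1. RNA polymerase and nucleotide enzymes gave 4 members of only 19 rows (21.1%), the highest share of any family. None of the 4 rows of iron storage genes was a member. The 69 members of no family by symbol were led by Gm6436, by Gm12481, a copy of Serf2, with 38.8 and 35.6 TPM, and by Tma7-ps with 26.3 and 32.4 TPM. For Gm6436 this rests on the symbol of 1 of 3 tied closest genes, Gm10260, and what that gene encodes was not examined.

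**Figure D4:**
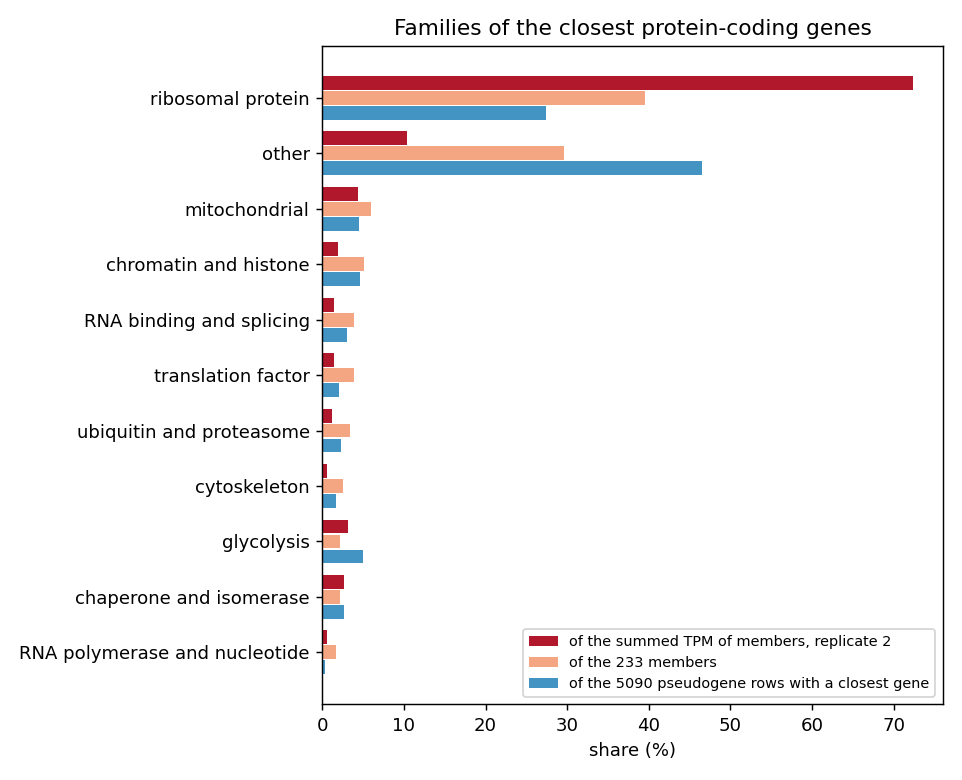
Share in percent (horizontal) of the members' summed TPM in replicate 2, of the 233 members, and of the 5090 processed pseudogene rows with a closest gene, by family of the closest protein-coding gene. Ribosomal protein genes have 72.4% of the TPM, 39.5% of the members and 27.4% of the rows.

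Most members were far below their closest gene. The ratio of member to closest gene in mean TPM had a median of 0.0954, with quartiles of 0.0280 and 0.352. Median TPM of the closest genes, over members, was 92.8 in replicate 2 and 104 in replicate 1, against 3.99 and 4.84 TPM for all expressed protein-coding genes, and 230 of the 233 members had a closest gene at 1 TPM or more in both. Across members the Spearman correlation between the member's TPM and that of its closest gene was 0.26, a description in which both values share the library and reads may be divided between them.

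Against this, 27 members were above their closest gene in both libraries, 21 of them with a posterior SD of at most 5%. Of these 27, 19 have the same length in the tables and in GENCODE M21, and 8 of the 19 have no unique 50-mer. Rpsa-ps10, Gm8730 and Rpl27-ps3, given next, have another length and are outside these 19. Rpsa-ps10, with 301 TPM in replicate 2 and 270 TPM in replicate 1, stood against 114 and 104 TPM for Rpsa. Gm8730 stood at 426 and 522 TPM against 348 and 413 TPM for Rplp0, and Rpl27-ps3 at 226 and 228 TPM against 184 and 225 TPM for Rpl27. Ndufb4c stood at 37.0 and 42.8 TPM against 6.07 and 7.30 TPM for Ndufb4, to which it is 100% identical over its whole length with no unique 50-mer. In counts, before correction for length, Gm8730 was below Rplp0, with 155942 and 115852 against 165652 and 118990. Rpl27-ps3 was below Rpl27, with 28409 and 17658 against 31500 and 24234. Rpsa-ps10 and Ndufb4c were above their closest genes in counts too. These cases are among the members that were above their closest gene in both libraries, so the shared order follows from that choice. For Ndufb4c every annotated base of the copy also lies in a transcript of the gene.

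Lower in level, Gm9825 had 14.9 TPM in replicate 2 and 21.3 TPM in replicate 1, against 3.51 and 6.01 TPM for the splicing factor gene Rnps1, with a posterior SD of 0.320% and 0.372%. Gm7334 had 2.15 and 2.79 TPM against 0.30 and 0.33 TPM for Btg3, with a posterior SD of 4.15% and 4.32% for Gm7334. Btg3 itself had a posterior SD of 28.3% and 34.3% of 151 and 102 counts, so its level is poorly resolved. The quantified rows of Gm9825 and Gm7334 have 1602 and 1356 nt, against 843 and 756 nt in GENCODE M21, so no unique share is given for them. Both were chosen after their values were seen. Of the 30 members with over 50% unique 50-mers, 1 was above its closest gene in both libraries, and the median ratio of these 30 was 0.0338, against 0.213 for the 43 that lie whole inside a protein-coding transcript. No test was made of that difference, since members share closest genes and libraries.

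**Figure D5:**
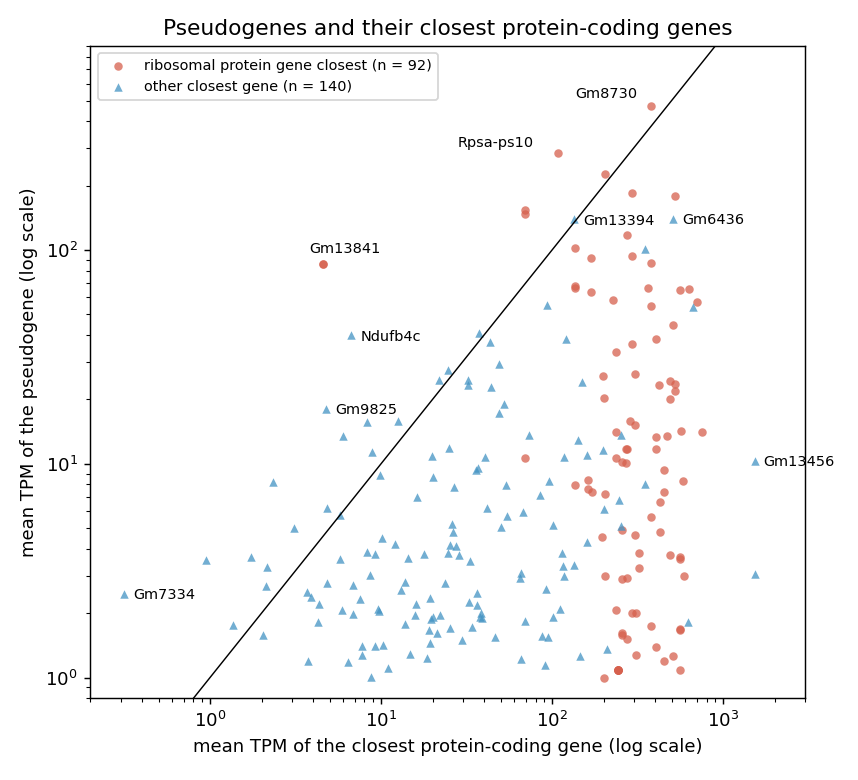
Mean TPM of each member (vertical) against mean TPM of its closest protein-coding gene (horizontal), both on log scales, for the 232 members whose closest gene was not at 0. The line marks equal TPM. The median ratio was 0.0954, and Gm13841, which shares its point with Gm8210, lies farthest above the line among the ribosomal protein copies.

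Between the libraries the members kept much of their order, with a Spearman correlation of 0.97 over the 233 members. The rounded counts of every gene were compared between the libraries by a two-sided exact binomial test, scaled with TMM and adjusted by the Benjamini-Hochberg method over 15275 genes. It sets 1 library against 1 library and covers counting error only, not the division of shared reads. At an adjusted p under 0.05 and a 2-fold difference, 7 of the 233 members (3.004%) were past both limits, beside 6.49% of all genes tested. Of these 5 were higher in replicate 2, beside 2.43% of all genes, and 2 were lower, beside 4.07%. Members had to reach the same TPM in both libraries, which removes many large differences, so nothing is read from the lower share. Among the protein-coding genes that passed the same TPM limit, 1.19% were past both limits. The median size of the log2 ratio was 0.30 for members, 0.20 for the expressed protein-coding genes and 0.28 for all genes tested.

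Of these 7 members, 6 had a posterior SD above the limit of 5% in at least 1 library and no unique 50-mer, so their values are given with no p. Rpl7a-ps11 was higher in replicate 2 by 2.27 on the log2 scale and Gm8226 was at -1.64, the pair whose values crossed. Rpl15-ps3 was at 1.41, Gm12338 at 1.15, Rps13-ps2 at 1.03, and Pgam1-ps2, a copy of the glycolytic enzyme gene Pgam1, at -1.14. The seventh, Gm12245, a copy of Bex4, has 33.4% unique 50-mers, had 31.3 TPM in replicate 2 and 15.2 TPM in replicate 1, and was at 1.28. It was the only one of the 7 with a posterior SD of at most 5% in both libraries, at 1.55% and 3.29%.

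The members leaned to one side. Relative to a median log2 ratio of -0.00372 over all genes tested, the members had a median of 0.25, with 170 of the 233 above 0 (higher in replicate 2), and their closest genes had a median of 0.17. The log2 ratio of the member and that of its closest gene had a Spearman correlation of 0.59 over the 43 members inside a protein-coding transcript and of 0.25 over the 30 with over 50% unique 50-mers. These are descriptions over genes of the same libraries, and the first group shares all of its sequence with the closest gene. The globin genes also differed between the libraries, with Hbb-bt at 493 TPM in replicate 2 and 225 TPM in replicate 1, and Alas2, of haem synthesis, at 176 and 63.3 TPM. The part of such differences in the members' ratios was not tested. Gm15459, the Hspa8 copy, was at -0.76 on the log2 scale, and Hspa8 had 206 TPM in replicate 2 and 497 TPM in replicate 1.

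No other annotated gene overlaps 147 of the 233 members. Another 31 lie in an intron on the same strand, 38 in an intron on the opposite strand, 12 overlap an exon on the opposite strand and 5 on the same strand. Hosts on the same strand of the intronic members had a median of 0.22 TPM, and 11 of the 31 hosts had a mean of 1 TPM or more. Those 31 members had a median of 3.03 TPM, against 5.13 TPM for the 147 that overlap no gene. Gm15459 overlaps an exon of Gm26825 on the opposite strand, and Gm26825 had 20.95 TPM in replicate 2 and 65.3 TPM in replicate 1. How reads of overlapping strands were assigned is not given in the sources used here.

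RefSeq on GRCm38.p6 has a gene of the same symbol and place for 209 members. It types 188 as pseudogenes, 17 as transcribed pseudogenes and 4 as protein coding. The 4 are Tma7-ps, Rpl34-ps1, H3f3c and Ndufb4c, named here after their values were seen. H3f3c, closest to the replacement histone gene H3f3a, had 13.0 TPM in replicate 2 and 8.61 TPM in replicate 1, and Rpl34-ps1 had 68.5 and 58.8 TPM.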

How the data were processed

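Total RNA-seq of 2 libraries from 1 condition was used. The authors worked on mm10 with GENCODE M4 and quantified transcriptome alignments, per the readme files in the deposit. No source used here names the aligner, the counting program or the strand handling. The authors' gene tables hold, per the file headers, an expected count (an estimated count that divides shared reads), TPM, FPKM and a posterior mean count. The posterior SD of the count and the interval bounds of TPM, also deposited by the authors, were treated as a score in the units of count or TPM. TPM in the deposited tables is scaled over all rows, short RNAs included.

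Gene types, names, sequences and coordinates (1-based) came from GENCODE M21 on GRCm38; 55 of the 233 members have another length there than in the tables. Closest genes came from blastn 2.17.0 (E of at most 1e-20, at least 50% of the pseudogene aligned, sense strand). For 6 members the closest genes were tied. The first by identity and then by symbol was taken, and the family was set from that gene alone. Unique 50-mers were counted against transcripts of all other genes. Estimated counts were rounded and scaled with TMM (edgeR 4.0.16) for the exact binomial test over genes that had 10 or more counts in either library; log2 ratios had 0.5 counts added. DESeq2 1.42.0 size factors, other thresholds and other k were alternatives. Families were set by symbol. The members and lists were chosen with earlier results of these data known. Named members are the 15 with the highest mean TPM, the 10 highest with a posterior SD of at most 5% and 100 or more counts in both libraries, the 5 with the largest posterior SD, up to 5 called in each direction, 3 on each side of the threshold, up to 3 per family, their closest genes and members of identical sets; others are said to be chosen after their values were seen.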

Additional observations from a re-analysis of the deposited data

How the results depend on the processing

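With a threshold of 5 TPM in both libraries there were 109 members, 92 of them with a posterior SD of at most 5%, 57 with a ribosomal protein gene closest, and a mean of the libraries' median posterior SDs of 1.78% (2.27% as reported). With FPKM of 1 or more the numbers were 449, 279, 146 and 2.71%, and with TPM rescaled over rows of 200 nt or more they were 472, 292, 155 and 2.71%; the cause was not tested beyond the share of TPM held by short rows. Requiring the threshold in 1 library only gave 246 to 256 members, 94 to 97 with a ribosomal protein gene closest, and medians of 1.98% to 2.55%. Of these members, 187 to 195 had a posterior SD of at most 5% in that library alone, whereas the 171 as reported had it in both. A posterior SD limit of 2% left 90 members. Members with a unique 50-mer had a median posterior SD of 1.78%. The median unique share was 19.9% with 75-mers and 26.97% with 100-mers. At 1.5-fold 39 of the 233 members were called between the libraries, beside 16.1% of all genes tested. Of the 158 members with a unique 50-mer, 1 was called at 2-fold, beside 6.49% of all genes tested. By the symbol before -ps, 46 of the 68 members with such a symbol were ribosomal protein copies. The other 39 of 58 alternatives left the value within 1.5 times, or within the spread between libraries for the median. No paired analysis was possible because the data hold 1 group. Depth limits statements on the 3113 rows with no count, and counts under 100 carry a counting error above 10%. Lengths and transcripts differ between the annotation of the authors and the one used for sequences.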
